A study of Mus musculus with 17 samples.

Results

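The nuclear genes of oxidative phosphorylation were examined in RNA sequencing of cortical microvessels of the mouse. The genes were taken by symbol (Nduf, Sdh, Uqcr, Cyc1, Cox4 to Cox8 and Atp5 names), protein-coding and with a mean of at least 1 CPM (CPM being the count of a gene scaled to the total of its library) over 17 libraries. The rule found 89 of the 42687 genes of the count table. They comprise 36 subunit genes of complex I, 4 of complex II, 9 of complex III, 15 of complex IV and 16 of complex V. The rest are 8 complex I assembly factors (Ndufaf genes), which are not subunits, and Atp5s, whose product associates with ATP synthase. Ndufa4 and Ndufa4l2 were counted with complex IV, where the Ndufa4 protein resides. Another 5 protein-coding genes matched by name but fell below the minimum: Cox8b at 0.851 CPM, Cox7a1 at 0.688, Cox6a2 at 0.649, Cox7b2 at 0.217 and Cox8c at 0.00428. The lowest gene inside the rule was Cox6b2, at 2.02 CPM. Subunits encoded by mitochondrial DNA were not analysed here.

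The mice were 10 to 11 months old and either WT (wild type) or APP/PS1, a transgenic model that deposits brain amyloid. The labels give neither the transgenic line nor its promoter. All mice, WT included, were injected intraperitoneally with 10 mg/kg of a peptide at intervals of 2 days over 2 weeks. The peptide was either gp91-ds-tat, an inhibitor of the superoxide-producing enzyme NOX2, or the control sgp91-ds-tat, so no group went without peptide. The groups held 5 WT libraries with control peptide (WT-control), 5 WT libraries with inhibitor (WT-inhibitor), 2 APP/PS1 libraries with control peptide (APP-control) and 5 APP/PS1 libraries with inhibitor (APP-inhibitor). In the labels the transgenic genotype is APP, the peptides are NOX2 and SC, and the cells are endothelium, pericytes and endfeet of astrocytes. They do not say whether 1 mouse or several gave a library, so p-values measure the spread between libraries. Library numbers within a group are names only.

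Oxidative phosphorylation is the pathway by which mitochondria turn electrons from nutrients into ATP. Complexes I and II feed electrons to ubiquinone, complex III passes them to cytochrome c, and complex IV gives them to oxygen. Complexes I, III and IV pump protons, and complex V, the ATP synthase, uses the proton gradient to make ATP. Brain capillary endothelium and pericytes hold many mitochondria, and complexes I and III are also known sources of superoxide. Some subunits of complex IV exist as isoforms of restricted tissue distribution, and 1 of these, Cox4i2, is known from lung and from vascular mural cells (pericytes and smooth muscle).

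The nuclear genes of the pathway have long been known to share promoter motifs, among them those of NRF1 and of the ETS factor GABP. RefSeq's table for GRCm38.p6 held a promoter for 71 of the 89 genes. In the 250 bases upstream of the start, the NRF1 motif (GCGC, any base, then TGCGC) occurred on either strand at 14 of 71 genes (19.7%), against 4.23% of all 27025 genes with a promoter. The ETS motif CGGAAG occurred at 26 (36.6%, against 15.3%) and the YY1 motif GCCATNTT at 7 (9.86%, against 4.49%). The Sp1 motif GGGCGG (39.4% against 35.4%) and CCAAT (43.7% against 37.5%) were nearer to the share in all genes, and TATAAA (7.04% against 14.3%) was below it. The Sp1 and ETS motifs can share bases. The 71 genes were chosen as protein-coding and expressed. The 27025 were not limited to expressed genes, so the shares compare unlike sets. A match describes the letters only and shows no binding. The promoters of 4 core subunits are printed to show how the matches sit, from 5′ to 3′ on the gene's strand and ending at the base before the start, with matches to the NRF1 and ETS motifs on either strand in capitals. Sdha, the flavoprotein of complex II, held 3 NRF1 matches. Sdhd, a membrane anchor of complex II, and Atp5c1, the gamma subunit of the ATP synthase stalk, held both motifs (for Atp5c1 the promoter of the second start listed). Cox5a, a structural subunit of complex IV, held an ETS match.
Sdha, chr13:74350241-74350490, minus strand: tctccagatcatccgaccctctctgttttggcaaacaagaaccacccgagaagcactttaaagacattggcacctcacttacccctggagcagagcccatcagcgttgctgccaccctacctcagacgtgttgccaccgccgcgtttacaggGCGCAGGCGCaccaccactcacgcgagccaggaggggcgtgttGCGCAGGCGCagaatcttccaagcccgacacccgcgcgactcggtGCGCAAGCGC
Sdhd, chr9:50603850-50604099, minus strand: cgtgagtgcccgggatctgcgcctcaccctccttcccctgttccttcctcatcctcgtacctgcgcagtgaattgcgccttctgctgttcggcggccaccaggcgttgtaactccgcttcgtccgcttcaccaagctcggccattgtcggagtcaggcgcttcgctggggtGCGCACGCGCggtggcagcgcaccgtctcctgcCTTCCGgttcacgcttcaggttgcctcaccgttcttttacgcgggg
Atp5c1, chr2:10080433-10080682, minus strand: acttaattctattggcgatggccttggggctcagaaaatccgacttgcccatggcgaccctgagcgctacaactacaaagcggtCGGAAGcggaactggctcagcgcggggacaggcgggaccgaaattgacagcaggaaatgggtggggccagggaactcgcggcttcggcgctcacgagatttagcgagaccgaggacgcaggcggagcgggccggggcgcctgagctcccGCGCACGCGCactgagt
Cox5a, chr9:57520982-57521231, plus strand: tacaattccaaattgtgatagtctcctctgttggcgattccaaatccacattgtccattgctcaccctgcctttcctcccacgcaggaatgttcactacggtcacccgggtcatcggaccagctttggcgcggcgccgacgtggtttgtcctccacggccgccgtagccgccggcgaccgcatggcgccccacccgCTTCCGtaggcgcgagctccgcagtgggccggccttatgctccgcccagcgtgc

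Total counts lay between 7316503 and 17862965 per library, with a median of 11342154, and 18753 genes passed edgeR's expression filter, all 89 of these genes included. App and Prnp were read as a check of the genotype labels, since some APP/PS1 lines use a Prnp promoter. Prnp was at 301 to 555 CPM in the 10 WT libraries and at 682 to 1418 CPM in the 7 APP/PS1 libraries, without overlap. App was at 1262 to 2230 CPM in WT and 1897 to 3334 CPM in APP/PS1. All 9 endothelial markers were detected, with a summed level of 2296 to 4233 CPM over the libraries, and all 8 pericyte markers, at 1059 to 1825 CPM. Markers of neurons (3174 to 5172 CPM summed) and of oligodendrocytes (1579 to 2711 CPM) were present too, although the labels do not name these cells. Markers of the choroid plexus varied from 31.8 to 8187 CPM. The 4 libraries with the most counts, 14533239 to 17862965 against 7316503 to 13728019 in the other 13, stood apart in the genes described here. They were 1 from each group: WT-control 1, WT-inhibitor 2, APP-control 1 and APP-inhibitor 1. As the groups hold 5, 5, 2 and 5 libraries, 1 library is a larger part of APP-control than of the other groups. Comparisons that use APP-control are therefore not balanced for this division. The noncoding pair Gm26917 and Gm42418, linked to ribosomal RNA, took 4.76% to 9.18% of their counts, against 8.83% to 15.99% in the others.

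The 89 genes together took between 0.193% (95% Wilson interval 0.190% to 0.195%) of counts in APP-inhibitor 3 and 0.259% (0.256% to 0.262%) in WT-control 4. These intervals cover counting error only. Levels between genes were compared as TPM, which divides by transcript length, here that of the principal transcript in GENCODE vM21. The median over the 80 subunit genes was 74.4 TPM, against 21.7 TPM over all genes tested, of which 84.6% lay below the subunit median. These sets are unlike. The subunit genes were chosen as protein-coding and with at least 1 CPM, and the genes tested only passed the expression filter. Median transcript lengths were 863 bases for subunit genes and 2795 bases for genes tested, and TPM divides by length. Complex medians were 60.1 TPM for complex I, 60.3 for II, 84.6 for III, 99.6 for IV and 103 for V. The 8 assembly factors had a median of 19.0 TPM. With the length of all annotated exons instead, the medians were 51.4, 60.4, 81.9, 77.0 and 58.4 TPM for complexes I to V, so only the value of complex V moved by more than 1.5 times.

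**Figure D1:**
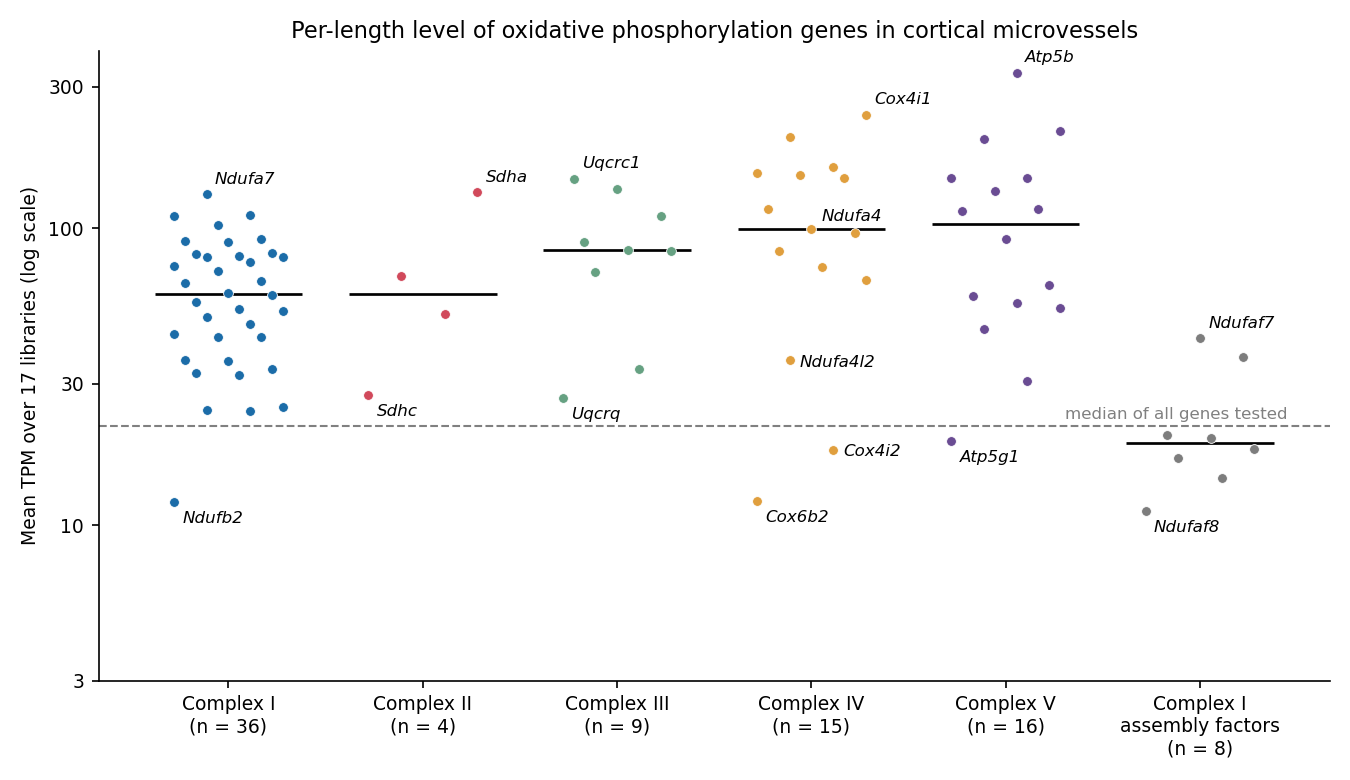
Mean TPM on principal transcripts over 17 libraries (log scale) of the 36, 4, 9, 15 and 16 subunit genes of complexes I to V and the 8 assembly factors. 1 point stands for 1 gene, black lines are class medians and the dashed line is the median of all genes tested (21.7 TPM); Atp5s is not drawn. Atp5b is highest at 335 TPM, and most assembly factors lie near or below the dashed line.

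Atp5b, the catalytic beta subunit of the ATP synthase, was highest on principal transcripts. It was at 335 TPM ± 46.5 (SD, n = 17), and Atp5a1, the alpha subunit, at 212 TPM ± 28.05 (SD, n = 17). With the length of all exons Cox8a was highest at 251 TPM, ahead of Atp5a1 at 233 and Atp5b at 211. In CPM, which is not divided by length, Atp5b was at 149, 152, 196, 252 and 156 in WT-control 1 to 5. It was at 212, 185, 181, 192 and 205 in WT-inhibitor 1 to 5, at 175 and 171 in APP-control, and at 166, 199, 147, 181 and 207 in APP-inhibitor. WT-control 4 was the highest library and APP-inhibitor 3 the lowest, and each pair of groups that differ in 1 factor overlapped. APP-control lay below all WT-inhibitor libraries, a pair that differs in both factors. Atp5c1, the gamma subunit, was at 134 TPM, and Atp5o, the stalk protein that ties the catalytic head to the membrane part, at 114 TPM.

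On principal transcripts, complex I genes spanned 11.985 TPM (Ndufb2) to 130 TPM (Ndufa7). The iron-sulfur and flavin subunits that carry electrons were within this range: Ndufs1 at 90.4 TPM, Ndufv1 at 81.0, Ndufs7 at 72.0, Ndufv2 at 66.4 and Ndufs8 at 53.4. In complex II, Sdha was at 132 TPM ± 12.4 (SD, n = 17), Sdhb, its iron-sulfur partner, at 69.2 TPM, and the membrane anchors Sdhd and Sdhc at 51.4 and 27.5 TPM. Complex III ran from Uqcrq at 26.9 TPM to the core protein Uqcrc1 at 147 TPM. Its Rieske iron-sulfur protein Uqcrfs1 was at 33.5 TPM, and cytochrome c1 (Cyc1) at 71.5 TPM. Subunits of a complex are assembled in fixed ratios, but their mRNA levels were not equal, and the level of short mRNAs depends on the transcript chosen. Atp5g1, for example, was at 19.2 TPM on a principal transcript of 4715 bases.

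Complex IV held the isoform pairs, and in each the broadly expressed isoform was the higher one. Cox4i1, at 242 TPM ± 26.7 (SD, n = 17), stood above Cox4i2 at 17.93 TPM ± 8.995 (SD, n = 17). Ndufa4 was at 99.6 TPM and Ndufa4l2, a paralog known as a pericyte marker, at 36.0 TPM. The isoforms known from heart and skeletal muscle were low: Cox6a2 at 3.34 TPM against 151 for Cox6a1, Cox7a1 at 6.13 against 84.0 for Cox7a2, and Cox8b at 8.24 against 203 for Cox8a. Isoforms known from testis were also low. Cox6b2 was at 12.1 TPM against 154 for Cox6b1, Cox7b2 was at 1.41, and Cox8c had counts in 1 library only. Cox7a2l, which helps complexes III and IV associate, was at 117 TPM. Among the genes for the proton-carrying c subunit of complex V, Atp5g3 was at 147 TPM, Atp5g2 at 46.0 and Atp5g1 at 19.2 on principal transcripts. The gap between Atp5g2 and Atp5g1 depends on length, since these transcripts have 731 and 4715 bases. With the length of all exons Atp5g3 was at 68.2 TPM, Atp5g2 at 27.96 and Atp5g1 at 25.7. In CPM on library totals, not divided by length, Atp5g1 was at 25.9 and Atp5g2 at 9.63.

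The comparisons ask whether mRNA of the pathway differs with the APP/PS1 transgenes, with NOX2 inhibition, or with the combination. Averaged over the genes of a complex, each pair of groups that differ only in genotype or only in peptide overlapped in every complex. Complex I averaged a log2 CPM of 3.98 ± 0.14 (SD, n = 5) in WT-control, 4.00 ± 0.04 (SD, n = 5) in WT-inhibitor, 3.98 ± 0.12 (SD, n = 2) in APP-control and 4.03 ± 0.06 (SD, n = 5) in APP-inhibitor. Complex IV averaged 4.11 ± 0.27, 4.12 ± 0.10, 4.10 ± 0.15 and 4.10 ± 0.24, and complex V 4.65 ± 0.18, 4.66 ± 0.07, 4.62 ± 0.04 and 4.64 ± 0.11 in the same order. WT-control 4 was the highest library in each of the 5 complexes, at 5.41 in complex II against 4.83 to 5.14 in the other WT-control libraries. It also had the highest choroid plexus marker score (mean log2 CPM), 7.37 against 1.29 to 6.60 in the other libraries. Its endothelial score of 8.43 was near the highest of the 17 libraries (range 7.58 to 8.44), and so was its mural score of 6.57 (range 5.88 to 6.63). The part of these cells in its levels was not tested. In bulk tissue, fewer cells of a type and less RNA per cell cannot be told apart.

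**Figure D2:**
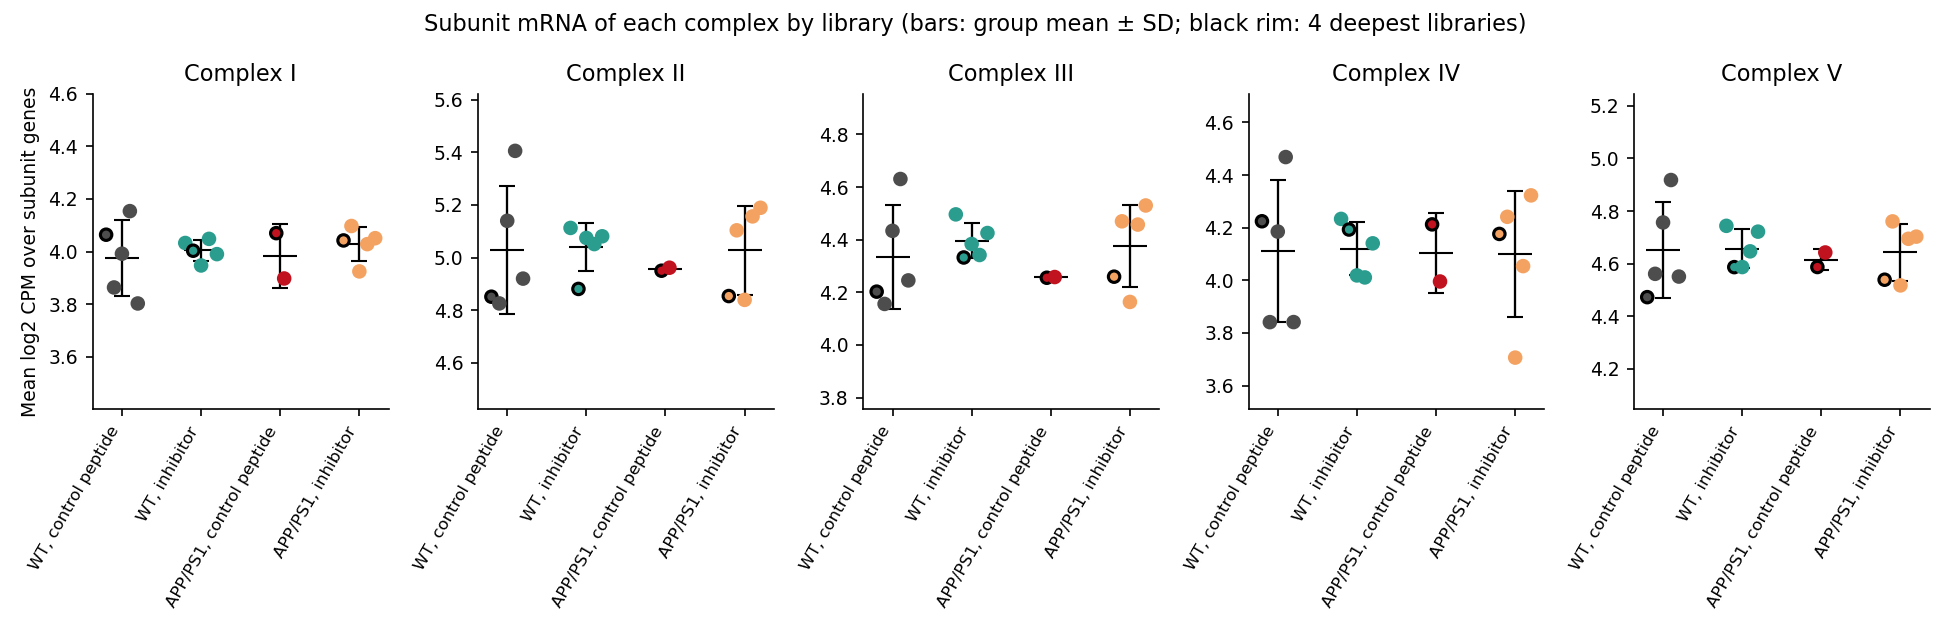
Mean log2 CPM over the subunit genes of complexes I to V (5 panels of equal span) in each library of the 4 groups; black bars are group means ± SD, and a black rim marks the 4 deepest libraries. Groups that differ in 1 factor overlap in each panel, and the SD is widest in WT-control in all 5.

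Over both peptides, 0 of the 89 genes passed the threshold between APP/PS1 and WT (a p of edgeR's quasi-likelihood test below 0.05 once adjusted over all genes tested), where 0.587% of all genes tested did. At an unadjusted p under 0.05 the count was 0, against 6.38% of all genes. The largest log2 changes were 0.22 for Ndufa13, which is both a complex I subunit and a cell death regulator, and -0.17 for Uqcrfs1. Both genes are also among those called for the deepest libraries, described below, Ndufa13 being higher there and Uqcrfs1 lower. The change of Ndufa13 was 0.10 without APP-control 1, which is among the deepest libraries, and 0.32 without APP-control 2. The smallest edgeR adjusted p of the 89 genes was 0.840, that of Ndufa13. The median change was -0.01 over these genes and 0.00 over all genes. For 86 of 89 genes the 95% interval of the change lay within 1.5-fold in both directions, as it did for 76.4% of all genes. Cyc1 had a change of -0.17 with an interval from -0.40 to 0.07.

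With control peptide alone, where APP/PS1 has 2 libraries, 0 of 89 genes passed (all genes 0.0533%), and with inhibitor alone 0 of 89 passed (all genes 0.181%). At an unadjusted p under 0.05 by edgeR, 2 genes were found with control peptide (all genes 3.97%) and 0 with inhibitor (all genes 3.38%). The 2 were Ndufaf2, an assembly factor of late complex I, and Atp5c1. Ndufaf2 was at 3.30, 2.10, 2.54, 2.05 and 1.46 CPM in WT-control 1 to 5 and at 4.06 and 3.66 CPM in APP-control. Both APP-control libraries thus lay above all WT-control libraries, and the difference was 0.73 ± 0.31 on the log2 scale (SE; adjusted p = 1.00 by edgeR). Atp5c1 was at 44.2, 44.5, 45.7, 47.8 and 40.5 CPM in WT-control and at 49.2 and 53.5 CPM in APP-control, again without overlap, a log2 difference of 0.20 ± 0.10 (SE, edgeR adjusted p = 1.00). Such separation was found for these 2 of 89 genes and for 7.53% of all genes tested. No gene of the 89 separated over both peptides (0.272% of all genes) or with inhibitor (0.784%). With inhibitor, Ndufaf2 was at 3.10, 1.62, 2.497, 3.27 and 2.29 CPM in APP-inhibitor and at 3.55, 2.40, 3.50, 4.03 and 1.86 CPM in WT-inhibitor, where the groups overlapped. Of the exon bases of Ndufaf2, 65.6% overlap a gene on the opposite strand, so its counts depend on strand being used in counting.

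The inhibitor was compared with the control peptide. Over both genotypes 0 of 89 genes passed edgeR's adjusted p (all genes 0%), in WT 0 of 89 (all genes 0%) and in APP/PS1 0 of 89 (all genes 0%). At an unadjusted p under 0.05, the counts were 2 over both genotypes (all genes 2.11%), 0 in WT (all genes 1.34%) and 1 in APP/PS1 (all genes 1.8%). Over both genotypes the 2 genes were Uqcrq, a small complex III subunit next to cytochrome b, with a log2 change of 0.25 ± 0.12 (SE), and Ndufb3, a membrane-arm subunit of complex I, with -0.21 ± 0.10 (SE). Uqcrq was at 9.14 to 13.005 CPM in WT-control, 10.3 to 16.7 in WT-inhibitor, 8.98 and 10.1 in APP-control and 9.45 to 14.8 in APP-inhibitor, so its groups overlapped in each genotype. The direction was higher with inhibitor for 58 of 89 genes (65.2%), against 51.4% of all genes, with a median change of 0.03. This count carries no test, since the genes vary together across libraries.

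In APP/PS1, Atp5c1 was at 43.5, 46.1, 44.7, 39.0 and 44.4 CPM with inhibitor, below both APP-control libraries (49.2 and 53.5 CPM). The difference on the log2 scale was -0.24 ± 0.10 (SE; adjusted p = 1.00 by edgeR). The inhibitor groups of APP/PS1 did not overlap for 5 of the 89 genes, Atp5c1, Atp5mpl, Ndufaf2, Ndufb3 and Ndufb6, and for 4.63% of all genes. In WT it was 0 of 89 (0.224% of all genes), and over both genotypes 0 of 89 (0% of all genes). Atp5c1 and Ndufaf2 are the 2 genes found above for genotype with control peptide, and both comparisons use the same 2 APP-control libraries. Ndufb6, a membrane-arm subunit of complex I, was at 5.22 and 4.49 CPM in APP-control and 5.72 to 7.60 CPM in APP-inhibitor, a change of 0.41 with a 95% interval from -0.02 to 0.85. In WT the smallest p belonged to Ndufa6, at 0.26 with an interval from -0.05 to 0.56.

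The interaction asks whether the effect of the inhibitor differs between genotypes, and 0 of 89 genes passed (all genes 0%). At an unadjusted p under 0.05 by edgeR the count was 1 (all genes 0.843%), Ndufaf2, with a log2 difference of -0.97 ± 0.40 (SE, edgeR adjusted p = 1.00). Cox6b2 had the largest difference upwards, 0.85, with an interval from -0.32 to 2.02. Precision was lowest here: the 95% interval lay within 1.5-fold for 48 of 89 genes and within 2-fold for 82. For the other comparisons the count within 1.5-fold was 66 for genotype with control peptide, 83 with inhibitor, 87 for inhibitor over both genotypes, 83 in WT and 64 in APP/PS1. DESeq2 also called 0 of the 89 genes in each of the 7 comparisons, with 175, 35 and 61 of all genes called for the 3 genotype comparisons. With the 4 deepest libraries as a covariate, and without them, 0 of the 89 genes were called in any comparison. Without the 4, APP-control keeps 1 library, which is assumed to vary like the others.

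**Figure D3:**
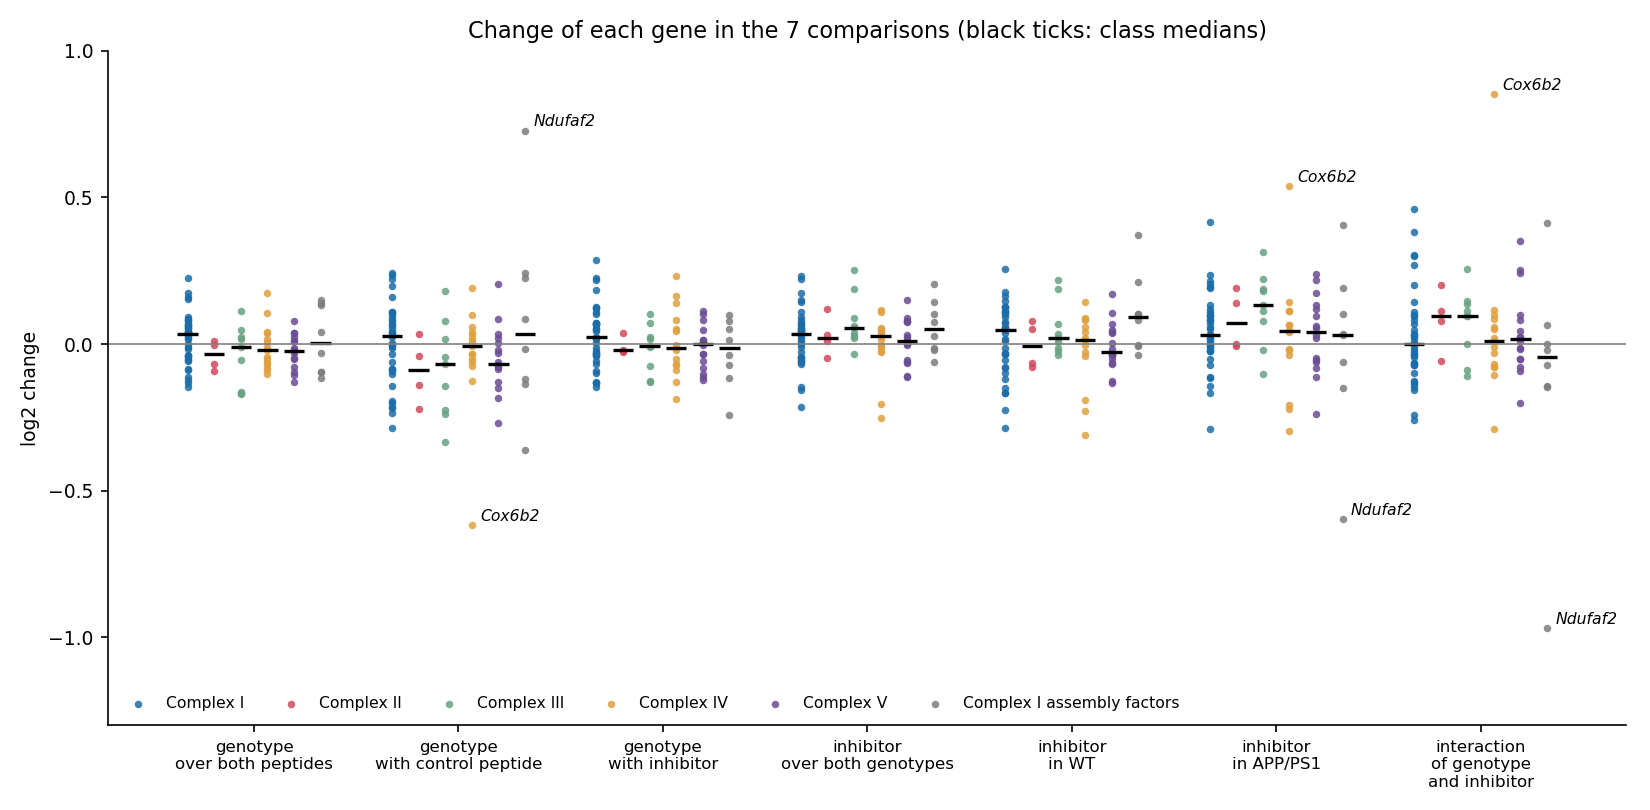
log2 change of each of 88 genes (Atp5s not drawn) in the 7 comparisons, by complex, with black ticks at class medians; changes are APP/PS1 minus WT or inhibitor minus control. No gene passed the adjusted threshold, the class medians lie between -0.09 and 0.13, and Ndufaf2 and Cox6b2, which are at low counts, reach farthest.

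Libraries of one group varied. Within groups, the SD of log2 CPM had a median of 0.22 over the 89 genes, from 0.08 for Ndufa10 to 0.79 for Cox4i2, against 0.25 over all genes. After removal of group means, pairs of genes within complex II had a median Pearson correlation of 0.63 across the 17 libraries, within complex III 0.49, IV 0.50, V 0.33 and I 0.12. Over all 3916 pairs of the 89 genes the median was 0.17, above that within complex I. Complex II has only 6 pairs. These values describe libraries that share depth and cell composition, and carry no p.

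Part of this spread went with the 4 deepest libraries, a division by total counts whose number of libraries was chosen after the values were seen. The calls below therefore describe the division and are no test of it. In a model of group means and this division, 17 of 89 genes (19.1%) passed edgeR's adjusted threshold, against 9.97% of all genes. Of these, 10 were higher in the 4 libraries (5.88% of all genes were) and 7 lower (4.09% of all genes were). Cox6c, a small membrane subunit of complex IV, was at 40.1 to 53.5 CPM in the 4 libraries and 26.1 to 34.2 CPM in the other 13. Uqcrb, which supports ubiquinone binding in complex III, was at 27.9 to 29.7 against 12.7 to 23.5 CPM, and Ndufb10, a complex I membrane-arm subunit, at 21.2 to 23.2 against 10.5 to 20.0 CPM. Cox4i2 was at 5.58 to 7.35 against 1.09 to 5.18 CPM. These 4 genes and Ndufa3 lay above all other libraries in each of the 4, as did 2.35% of all genes.

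The genes lower in the 4 libraries were Ndufv1, which holds the flavin where NADH is oxidised, Ndufc1, Sdhb, Uqcrfs1, Cyc1, Atp5g2 and Atp5o. Ndufv1 was at 27.8 to 33.6 CPM in the 4 libraries and 37.7 to 48.4 CPM in the others, and Sdhb at 17.1 to 20.0 against 20.1 to 27.8 CPM. Those 2 genes lay below every other library, as did 1.52% of all genes. The other called genes that were higher were Ndufa5, Ndufa12, Ndufa13, Ndufb7, Ndufs4 and Ndufs6, all of complex I. The genes that were higher had a median principal transcript of 735.5 bases and those that were lower of 1249 bases. Relative to the mean of all subunits, complex II stood 0.62 to 0.68 log2 units higher in the 4 libraries and 0.75 to 0.92 in the other 13, without overlap. Complex V stood 0.24 to 0.35 and 0.36 to 0.49 higher, also without overlap. For complexes I, III and IV the ranges of the 4 libraries and of the other 13 overlapped. With log2 total counts as a graded measure, Cox4i2 and Ndufa4l2 were called (2.25%, against 3.25% of all genes). Leaving out 1 library gave 0 to 7 genes there (0 without WT-control 1 or WT-inhibitor 2, 7 without WT-inhibitor 4). That count moved by more than 1.5 times in 11 of the 17 such fits. For the 4 deepest libraries, the count of 17 genes fell to 6 without WT-control 1 or WT-inhibitor 2. It was 7 without APP-control 1 or APP-control 2 and 10 without APP-inhibitor 1. The neuron marker score was 7.79 to 8.05 in the 4 libraries and 7.42 to 7.96 in the others, of which only APP-inhibitor 5 lay above 7.785 and within the range of the 4. As given further on, 0 of the 89 genes were called with the neuron score itself. The labels give no batch, and the part of depth, ribosomal RNA or neuronal RNA in this division was not tested.

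**Figure D4:**
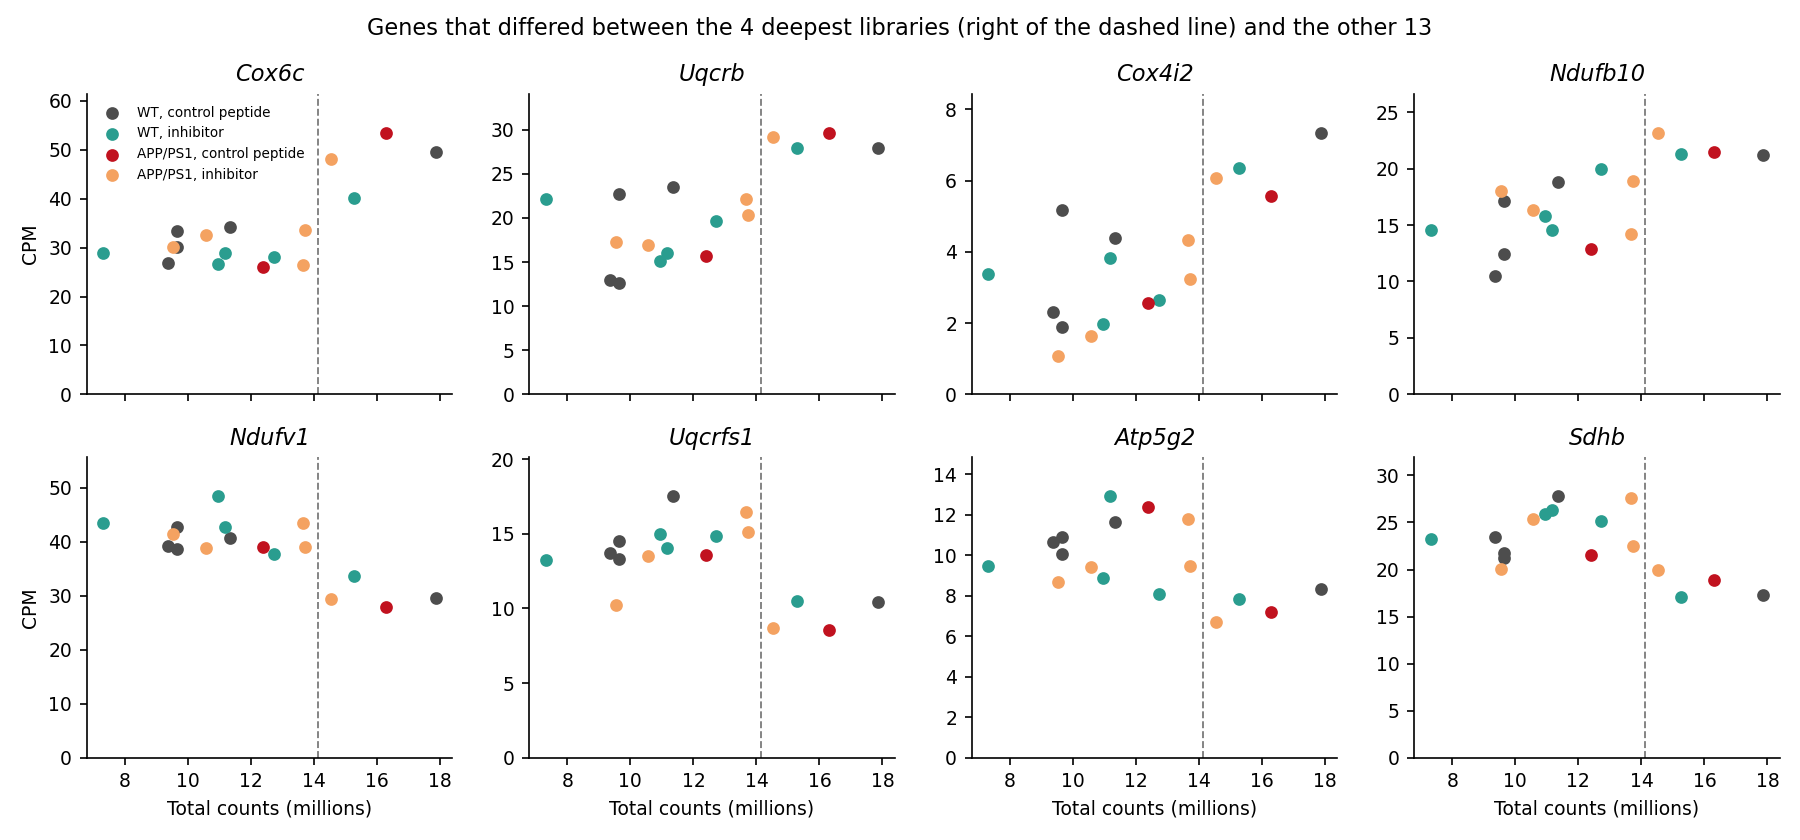
CPM of 4 genes that were higher and 4 that were lower in the 4 deepest libraries, against total counts (axis in M counts); 1 point is 1 library, coloured by group, and the dashed line separates the 4 deepest libraries. Each of the 4 groups has 1 library to the right of the line, and Cox6c lies at 40.1 CPM or more there and 34.2 or less to the left.

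Cox4i2 and Ndufa4l2 are known from mural cells, and their levels were compared with the mean log2 CPM of 8 pericyte markers, the mural score, beside their broadly expressed paralogs. Cox4i2 was at 7.35, 1.89, 5.18, 4.38 and 2.30 CPM in WT-control 1 to 5. It was at 3.83, 6.35, 1.98, 3.38 and 2.64 CPM in WT-inhibitor, at 5.58 and 2.58 in APP-control, and at 6.07, 3.25, 1.09, 1.63 and 4.34 in APP-inhibitor. The highest library of each group was that with the most counts. Across 17 libraries, Cox4i2 and the mural score had a Pearson r of 0.47 (permutation p = 0.057, adjusted over 4 genes 0.076) and a Spearman rho of 0.40 (p = 0.111, adjusted 0.116). Ndufa4l2 had an r of 0.60 (permutation p = 0.011, adjusted 0.025) and a rho of 0.54 (p = 0.026, adjusted 0.052). Cox4i1 had an r of 0.59 (permutation p = 0.012, adjusted 0.025) and a rho of 0.61 (p = 0.010, adjusted 0.041). Ndufa4 had an r of 0.35 (permutation p = 0.171, adjusted 0.171) and a rho of 0.39 (p = 0.116). All are two-sided permutation tests. Without the 2 libraries farthest from the median score, APP-inhibitor 3 and 5, the values of r were 0.31, 0.53, 0.51 and 0.27 for these genes, and none had an adjusted p under 0.05. For Ndufa4l2 and Cox4i1 the adjusted p was then 0.101, so the calls of these genes were lost while r kept its sign.

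In an analysis added after the data were seen, the 4 deepest libraries were left out. They hold the 4 highest values of Cox4i2. Ndufa4l2 was at 10.7 to 12.7 CPM in them, against 5.97 to 12.2 CPM in the others. As these libraries were set apart after the values were seen, the p-values here are no independent test for any of the 4 genes. Within the other 13 libraries r was higher for all 4 genes. It was 0.77 for Cox4i2 (permutation p = 0.0023, adjusted 0.0046; rho 0.75, adjusted 0.0081) and 0.80 for Ndufa4l2 (permutation p = 0.0014, adjusted 0.0046; rho 0.84, adjusted 0.0028). It was 0.67 for Cox4i1 (permutation p = 0.012, adjusted 0.016; rho 0.73, adjusted 0.0081) and 0.47 for Ndufa4 (permutation p = 0.109, adjusted 0.109; rho 0.53, adjusted 0.066). Without the 2 of these 13 farthest from the median score, r was 0.65, 0.74, 0.58 and 0.40. The 4 deepest libraries are too few for a correlation of their own. Within groups of 5, too few for a test, r differed between genes and groups. For Cox4i2 it was 0.54 in WT-control, 0.80 in WT-inhibitor and 0.50 in APP-inhibitor, and for Ndufa4l2 0.48, 0.82 and 0.71. For Cox4i1, present in most cell types, it was 0.99, -0.20 and 0.79, and for Ndufa4 0.87, 0.08 and 0.56. The difference between isoforms was not tested.

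**Figure D5:**
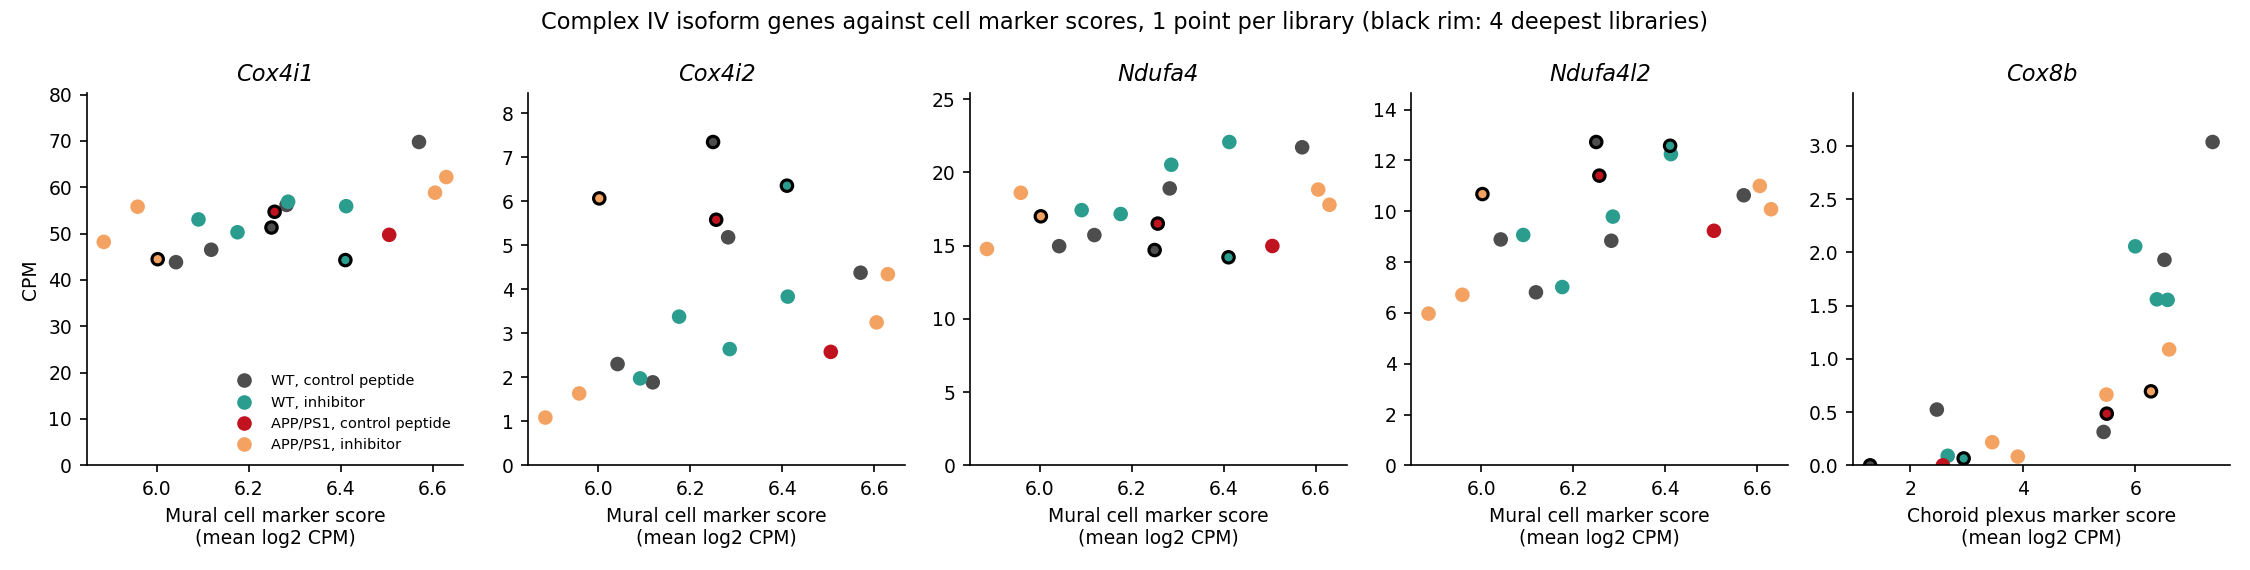
CPM of Cox4i1, Cox4i2, Ndufa4 and Ndufa4l2 against the mural cell marker score, and of Cox8b against the choroid plexus marker score (mean log2 CPM of the markers); 1 point is 1 library, coloured by group, and a black rim marks the 4 deepest libraries. The rimmed points of Cox4i2, at 5.58 to 7.35 CPM, lie above all others, and Cox8b is at 0 to 0.524 CPM in the 7 libraries with low choroid score.

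Each of the 12 marker scores was also entered in turn beside the group means. With the endothelial score 7 of 89 genes were called (7.87%), all rising, against 11.1% of all genes in either direction and 7.56% rising. With the mural score it was 9 (10.1%), all rising, against 10.3% and 6.25%, and with the fibroblast score 8 (8.99%), all rising, against 6.4% and 5.18%. Atp5a1, Atp5b, Cox6b1, Cox7a2 and Cox7a2l were called in all 3. Atp5b changed by 0.57 ± 0.15 (SE) log2 units per unit of endothelial score (edgeR adjusted p = 0.022). These shares lie near the share of all genes called in either direction or little above it. Called or not, 70, 69 and 71 of the 89 genes rose with the 3 scores. Their medians were 0.29, 0.31 and 0.25 log2 units per unit of score, against -0.0030, 0.0038 and -0.015 over all genes. This direction carries no test, since the genes vary together across libraries. The counts called fell to 0 for the first 2 scores when libraries were scaled by total counts alone. They ranged from 0 to 15, 0 to 13 and 0 to 9 when 1 library was left out, with 0 for the endothelial and fibroblast scores without WT-control 4 and 0 for the mural score without APP-inhibitor 5. Leaving out WT-control 2 or APP-inhibitor 2, 3 or 5 moved all 3 counts by more than 1.5 times. So did WT-control 4, WT-control 5 for the mural and fibroblast scores, APP-inhibitor 1 for the mural and APP-inhibitor 4 for the endothelial score. With the neuron score 0 genes were called, where 8.88% of all genes were, with the microglia score 1 (Cox7a2l, all genes 6.08%), and with the choroid plexus score 0 (all genes 1.74%). With 6 other scores 0 of these 89 were called, against 0.24% of all genes for astrocytes, 0.107% for smooth muscle, 0.0693% for erythroid cells, 0.016% for neutrophils, 0.0107% for oligodendrocytes and 0% for ependyma. With the percent of counts in Gm26917 and Gm42418, 3 rose (Atp5g2, Cyc1 and Ndufv1) and 3 fell (Cox6c, Ndufb7 and Uqcrb), or 6.74%, against 3.39% of all genes. All 6 are among the 17 genes of the deepest libraries, and the count was 0 without APP-control 1, APP-control 2 or APP-inhibitor 1, at most 1 without WT-inhibitor 1 or 2, 3 without WT-control 1 or 3 or APP-inhibitor 2, and 14 with libraries scaled by total counts alone.

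Cox8b, the muscle isoform just under the minimum, was not spread evenly. The choroid plexus score fell into a cluster of 7 libraries at 1.29 to 3.91 and one of 10 at 5.43 to 7.37. Cox8b was at 0 to 0.524 CPM in the former and at 0.314 to 3.04 CPM in the latter, where 3 counts correspond to 0.168 to 0.410 CPM. Within the 10 libraries, r with the score was 0.82 (permutation p = 0.0041, adjusted over both clusters 0.0082) and rho 0.70 (p = 0.032, adjusted 0.065), and r was 0.64 without the 2 farthest libraries. Within the 7, r was 0.26 (exact permutation p = 0.562, adjusted 0.562). These libraries were clustered and tested after their values were seen.

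Other genes of energy metabolism, from lists of assembly factors, the citric acid cycle, regulators of mitochondrial biogenesis, carriers, glycolysis, mitochondrial antioxidants, and mitochondrial and cytosolic ribosomal proteins, were tested in the same fits. For genotype over both peptides, 2 of 20 glycolysis genes were higher in APP/PS1 by edgeR's adjusted p, where 0.587% of all genes were called in either direction. In the other 6 comparisons, control peptide alone and inhibitor alone included, 0 of the 20 were called. These were Hk2, which phosphorylates glucose (log2 change 0.87 ± 0.19, SE, adjusted p = 0.030), and Pfkfb3, which makes the activator of phosphofructokinase (0.49 ± 0.09, SE, adjusted p = 0.010). The median of the 20 was -0.02. In the same comparison all 7 microglia markers had a positive change, with a median of 0.67, and 5 of them were called higher. Of 7 astrocyte markers 1 was called higher (median 0.23), and of 6 neutrophil markers 1 (median 0.63). The part of these cells in the values of Hk2 and Pfkfb3 was not tested. In the 7 other lists, 0 genes passed in any comparison, among them 0 of 18 citric acid cycle genes, 0 of 40 assembly factors outside the rule, 0 of 15 biogenesis regulators and 0 of 77 mitochondrial ribosomal proteins. Median log2 changes for genotype over both peptides were -0.03 for the citric acid cycle, 0.04 for biogenesis regulators and 0.00 for mitochondrial ribosomal proteins. Cytosolic ribosomal proteins, which like many subunits have short abundant mRNAs, had a median of 0.04 with 0 of 81 called.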

How the data were processed

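The authors deposited raw counts per Ensembl gene, whole numbers with a different total in each library. The submitters' processing notes name cutadapt, STAR, HTSeq and DESeq2 and the builds GRCh37 and mm10, with no role or version; whether counting used strand is not given in the sources used here. RNA was depleted of ribosomal RNA and made into stranded libraries, per the labels' protocols. Another 20 columns matched no sample and were not used. Symbols came from GENCODE vM21 (42329 of 42687 IDs).

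Tests were quasi-likelihood F tests of edgeR 4.0.16 (R 4.3.3) after TMM scaling and filterByExpr, with Benjamini-Hochberg adjustment over 18753 genes and a threshold of 0.05. A group-means model gave 5 comparisons and an additive model the 2 over both factors; all 17 libraries entered each. The model code was tested on simulated data. CPM uses TMM-scaled totals; log2 CPM a prior count of 2. TPM divides by the principal transcript. The 42 gene and comparison pairs with the 3 smallest p-values in each direction, isoform pairs and core subunits were named, except 1 gene that is not reported here. DESeq2 1.42.0, other scalings, filters and leave-one-out fits were alternatives; marker score and depth fits were added after the data were seen. Pseudogene similarity (blastn 2.17.0, at least 95% identity) was found for 21 genes, with under 10% of joint counts in each. Exons of 4 genes (Atp5o, Ndufa13, Ndufaf2 and Ndufb6) overlap an opposite-strand gene by more than 20%. The genes and lists were chosen with earlier results of these data known.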

Additional observations from a re-analysis of the deposited data

Results flagged for a closer look

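Dixon's ratio was computed in 72 cases, each for 1 measure in 1 group of 5, and exceeded the critical value of 0.71 in 1 of them (0.735), where about 1 case in 20 does so by chance. The mean log2 CPM of the complex II genes was 4.88 in WT-inhibitor 2, against 5.05 to 5.11 in the other libraries of that group. WT-inhibitor 2 is 1 of the 4 deepest libraries, in which complex II was low relative to all subunits.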

How the results depend on the processing

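No gene of the 89 was called in any of the 7 comparisons under the DESeq2 size factors, library totals, no low-count filter, DESeq2, only the groups compared, the 17 fits that left out 1 library, the choroid covariate or the handling of the 4 deepest libraries, and the smallest adjusted p of a member under the planned settings was 0.489. The medians over these genes moved by less than 0.10, the SD between replicates. These medians were small and some changed sign. That for genotype with control peptide ranged from -0.06 to 0.06 when 1 library was left out. None of 1032 values of the named genes changed sign. Those genes were picked by small p in the same data, and most fits share all but 1 library, so this is no test. Counts over all genes depended more on the setting. DESeq2 called 175 genes for genotype over both peptides against 110, 35 against 10 with control peptide and 61 against 34 with inhibitor. Leaving out 1 library gave 70 to 125 (70 without APP-control 2), 4 to 17 (4 and 6 without APP-control 2 and 1, 6 and 17 without WT-control 3 and 4) and 15 to 38 (15 to 21 without WT-inhibitor 1, 3 or 5 or APP-inhibitor 2 or 4) in the same order. With library totals only, r with the mural score was 0.58 for Ndufa4l2 and 0.47 for Cox4i1, and neither passed; without the 2 farthest libraries it was 0.53 and 0.51, and neither passed. Within the 13 libraries other than the 4 deepest, r of Cox4i2 was 0.77. The 4 left out hold its highest values and were set apart after the values were seen, so its p there is no independent test. The cause of these shifts in r was not tested. The count for the 4 deepest libraries was 15 or more under both other scalings. No paired analysis was possible because replicate numbers were given in sample order and pair no libraries. The 2 APP-control libraries limit the precision of every comparison that uses them.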

Other observations

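Ndufab1, the acyl carrier protein shared by complex I and mitochondrial fatty acid synthesis, was at 35.7 TPM. Ndufaf7, a methyltransferase, and Ndufaf5 were at 42.8 and 37.0 TPM on principal transcripts, where Ndufaf8 was lowest of the assembly factors at 11.2. With all exon bases they were at 29.8 and 33.6 TPM, and Ndufaf2 was lowest at 4.58. Uqcrb varied between libraries from 82.6 to 212 TPM, whereas its neighbour in the complex, Uqcrc2, stayed between 74.8 and 96.6 TPM.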
